A study of Homo sapiens with 4 samples.

Results

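The MYC and MAX network is a family of transcription factors that bind DNA in pairs, and 10 of its genes were looked for on the arrays: the activators MYC and MYCN, the common partner MAX, the antagonists MXD1, MXD3, MXD4, MXI1 and MNT, the MAX-binding repressor MGA, and MLX. Genes were taken by symbol, either as given in the array files or as the current symbol of the transcript accession listed there. In this way 9 of the 10 genes were found, each with 1 probe, among 14267 genes and 14297 gene probes. MXD3 was not analysed here. The network's genes were taken by name and not by a measured value, although earlier results of these data were known at the time.

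The samples were K562 cells, an established human erythroleukemia line. Cells treated for 4 h with AC-1041, an amino-trifluoro-phthalimide analog of thalidomide, were compared with control cells on 4 two-colour Agilent arrays, each of which held RNA of both. The treated RNA was labeled with Cy5 on arrays 1 and 2 and with Cy3 on arrays 3 and 4, and the control RNA with the other dye. The labels call the control cells untreated while the methods of the study name a DMSO control. A dose is given in those methods but not in the labels. The labels name no genetic difference between treated and control cells. The methods name 4 samples of each compound and of its control, but the labels do not say whether the arrays came from separate cultures. The p-values of the reported fit measure the spread between arrays of the same dye orientation, which may be technical. Values are log2 ratios of treated over control. They came from limma, fitted to 8852 probes with terms for treatment and dye, and a gene was called at an adjusted p (Benjamini-Hochberg over all probes) under 0.05.

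All proteins of the network carry a basic helix-loop-helix leucine zipper and bind the E-box CACGTG as dimers. MYC and MYCN pair with MAX, recruit histone acetyltransferases and raise the transcription of genes for ribosome production, nucleotide synthesis and cell division. The MXD proteins, MXI1 and MNT compete for MAX and bring the SIN3 corepressor with histone deacetylases to the same sites, and MXD1 in particular is known from differentiating blood cells. MGA joins MAX in a Polycomb complex, PRC1.6. MLX is the partner of the Mondo proteins, which sense glucose, and also binds MXD1, MXD4 and MNT. K562 cells carry the BCR-ABL fusion, and MYC is known as one of the genes on which their growth rests.

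The E-box itself was searched for in the RefSeq promoter table of GRCh38.p14, in the 250 bases before each start site. The letters CACGTG read the same on both strands, so 1 search covers both. They were found in 6.34% of the 35116 windows of the table. Windows were given for 9 of the 10 genes, all but MYC, and 3 of these genes held the motif, all of them partners or antagonists. Counted by window, as the share of the table is, these were 3 of 14. The 3 sites are shown 5′ to 3′ on the strand of the gene, with the motif in capitals, since the network binds these letters. They lie at chr4:2262330-2262359 (minus strand), 238 bases before the start of MXD4, at chr17:2401236-2401265 (minus strand), 193 bases before the start of MNT, and at chr17:42567038-42567067 (plus strand), 50 bases before the start of MLX.
MXD4: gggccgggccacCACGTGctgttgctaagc
MNT: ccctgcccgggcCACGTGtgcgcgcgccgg
MLX: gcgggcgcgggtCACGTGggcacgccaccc
A match to the letters is a description and does not show binding, and sites outside the 250 bases were not searched.

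Most of the network gave no call after 4 h of AC-1041. Of the 7 genes that could be tested, the antagonists MXD1 and MXI1 rose, which is 2 of 7 against 24.3% of all probes called higher. MXD1 entered the test only through its treated channel, the higher one, so the filter on dim probes favoured this call and the count lends no support. None was called lower by limma, against 13% of all probes, and none was lower at an unadjusted p under 0.05 either. Counted either way, 2 of 7 genes were called against 37.3% of all probes. Over the 7 genes the log2 ratio had a median of -0.04, and over all tested probes one of 0.02. With so few genes the count of 2 lies close to the share of all probes. Fewer cells of a kind and less RNA per cell cannot be told apart in such RNA.

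The plot of all 9 genes by array shows how the values of most of them split by dye.

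**Figure D1:**
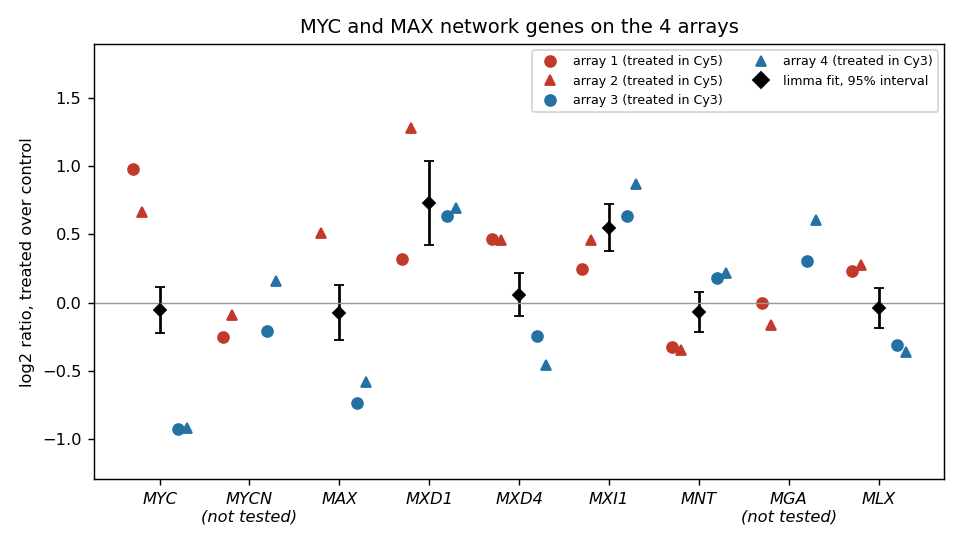
Log2 ratio of treated over control (y axis) for the 9 genes on each of the 4 arrays, red where Cy5 labeled the treated RNA and blue where Cy3 did; diamonds are the limma values with 95% intervals, and the 2 genes marked not tested were too dim. MXD1 and MXI1 lie above 0 on all 4 arrays, while MYC, MAX, MXD4, MNT and MLX change sign with the dye.

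MXI1, which pairs with MAX and recruits SIN3, rose with the smaller spread of the pair. Its log2 ratios were 0.25, 0.46, 0.63 and 0.87 on arrays 1 to 4, so treated cells were higher on each array and more so with the treated RNA in Cy3. The limma value was 0.55 (standard error 0.074, 95% interval 0.38 to 0.72, n = 4 arrays), a 1.46-fold rise with a limma adjusted p of 0.00075. The probe was well above background in both channels of all arrays. The normalized log2 intensity of the treated channel was 12.77, 13.12, 13.13 and 13.33, and that of the control channel 12.53, 12.67, 12.50 and 12.46. The treated and control channels did not overlap, and the control channel varied less (SD 0.090) than the treated one (SD 0.23). The probe, listed for transcript variant 2, was placed by the array files at chr10:112035935-112035991 of hg18 (plus strand), a stretch of 57 bases for a probe of 60.

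MXD1 rose against a control channel near background. Its log2 ratios were 0.32, 1.28, 0.63 and 0.70 on arrays 1 to 4. All were above 0, with array 2 the highest and array 1, of the same dye orientation, the lowest. The limma value was 0.73 (standard error 0.13, 95% interval 0.43 to 1.04, n = 4) with a limma adjusted p of 0.0035. Since the control was not well above background on 3 of the 4 arrays, no fold is given. The SD over the arrays was 0.40, larger than the 0.26 of MXI1. The treated channel was well above background on 2 arrays and the control channel on 1, all of them with the treated RNA in Cy3. Log2 intensities were 9.23, 8.44, 9.01 and 9.44 in the treated channel and 8.91, 7.16, 8.38 and 8.74 in the control channel. The channels therefore overlapped between arrays, although the treated one was higher within each array. Unlike the other tested genes, MXD1 showed no difference between the dye orientations that passed the test (limma adjusted p of the dye term 0.682).

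The MXD1 probe is shown because the call rests on this dim probe alone. It was placed at chr2:69996030-69996806 of hg18 (plus strand), a stretch of 777 bases for a probe of 60, so its ends lie apart in the genome, as for a probe that crosses a splice junction.
MXD1 probe: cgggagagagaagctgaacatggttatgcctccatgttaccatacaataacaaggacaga
The upstream sequences of both genes that rose hold no CACGTG. For MXD1 it is chr2:69914859-69915108 and for MXI1, at the first of its 3 start sites in the table, chr10:110207355-110207604, both on the plus strand of GRCh38.p14 and printed in lower case because there is no motif to mark.
MXD1: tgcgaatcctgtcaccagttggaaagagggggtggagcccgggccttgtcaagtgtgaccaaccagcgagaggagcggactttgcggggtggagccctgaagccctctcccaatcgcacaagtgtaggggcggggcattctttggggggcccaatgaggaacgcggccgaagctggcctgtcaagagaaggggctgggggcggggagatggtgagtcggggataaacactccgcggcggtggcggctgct
MXI1: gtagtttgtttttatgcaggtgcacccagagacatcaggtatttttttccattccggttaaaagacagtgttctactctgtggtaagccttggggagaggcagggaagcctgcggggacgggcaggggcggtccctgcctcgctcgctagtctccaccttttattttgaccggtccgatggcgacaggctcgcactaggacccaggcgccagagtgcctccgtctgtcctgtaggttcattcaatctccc
The other start sites of MXI1 had no match either, which says nothing of other sites of the gene, and which of its start sites is used in these cells is not known from the arrays.

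Both calls depended on the dye term. Without it the limma adjusted p was 0.150 for MXD1 and 0.160 for MXI1, with the log2 ratios as above. The exact sign-flip permutation test over 4 arrays (two-sided) gave p = 0.125 for each, the smallest p that 4 arrays allow.

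The other antagonists gave no call. MXD4 had log2 ratios of 0.47, 0.46, -0.24 and -0.46 on arrays 1 to 4. Its sign turned with the dye, and limma gave 0.06 (95% interval -0.10 to 0.21, adjusted p = 0.553). MNT, a widely expressed antagonist of MYC, ran the other way, with -0.32, -0.35, 0.18 and 0.22. Its limma value was -0.07 (95% interval -0.21 to 0.08, adjusted p = 0.436). For both genes the intervals leave room for small changes in either direction. The MXD4 probe was placed at chr4:2222731-2223951 of hg18 (minus strand) over 1221 bases, again with its ends apart, and that of MNT at chr17:2239929-2239988 (minus strand). The MNT probe is listed under the accession of an mRNA called pp7518 and not under a RefSeq transcript.

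The MYC probe gave no change that held across the dyes. Its log2 ratios were 0.98 on array 1, 0.67 on array 2 and -0.93 on each of arrays 3 and 4. Treated cells were thus higher on arrays 1 and 2 and lower on arrays 3 and 4, by similar amounts. The limma value was -0.05 (standard error 0.074, 95% interval -0.22 to 0.12, adjusted p = 0.609), and the dye term was 0.88, with 3.99% of all tested probes having one at least as large in size. The probe was well above background in all channels. This probe reads only part of what MYC makes: the array files describe it as matching an mRNA that starts at the promoter P0, at chr8:128816997-128817056 of hg18 (plus strand). P0 is the most upstream promoter of MYC, while most MYC mRNA in cells starts further downstream. The value therefore concerns transcripts from P0, and the level of the main MYC transcripts was not measured by a probe found here. No sequence is shown for it.

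MAX, the partner shared by the activators and antagonists, was well above background in every channel. Its log2 ratio was 0.51 on array 2, -0.74 on array 3 and -0.59 on array 4, and the spot on array 1 was left out because Feature Extraction had marked it as an outlier. The limma value over these 3 arrays was -0.08 (95% interval -0.28 to 0.13, adjusted p = 0.529). As for MYC, the sign followed the dye. The probe was listed for transcript variant 3 of MAX and placed at chr14:64611756-64611815 of hg18 (minus strand).

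**Figure D2:**
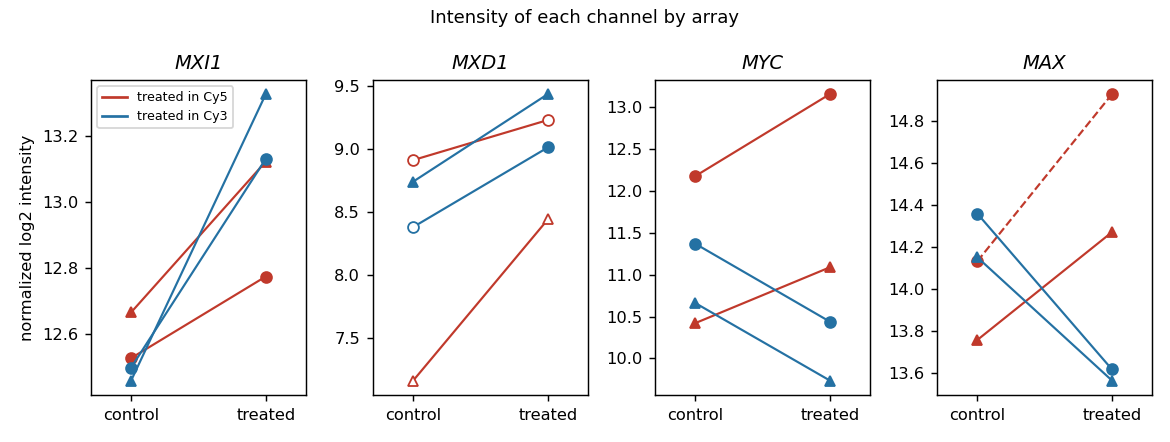
Normalized log2 intensity (y axis, a separate scale for each gene) of the control and the treated channel, joined for each array, red where Cy5 labeled the treated RNA and blue where Cy3 did. Open symbols were not well above background and the dashed line is the MAX spot marked as an outlier; lines rise on all 4 arrays for MXI1 and MXD1 and go opposite ways with the dye for MYC and MAX.

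MLX behaved much like MXD4, with log2 ratios of 0.23, 0.28, -0.31 and -0.37 on arrays 1 to 4. It was well above background in all channels, and limma gave -0.04 (95% interval -0.19 to 0.10, adjusted p = 0.642). The probe was placed at chr17:37975574-37975633 of hg18 (plus strand). MYCN and MGA were too dim to be tested. MYCN, the neuronal form of MYC, had ratios of -0.25, -0.09, -0.21 and 0.15 and was well above background in no channel of any array, so these ratios have no order. MGA had -0.00, -0.17, 0.31 and 0.61 and was well above background in the treated channel of array 4 only. The MYCN probe was placed at chr2:16004218-16004277 and that of MGA at chr15:39820433-39820492 of hg18, both on the plus strand.

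Values of the network differed with the dye orientation. Of the 7 tested genes, 6 had a dye term with an adjusted p under 0.05, against 58.2% of all probes. The same 4 arrays correlated across probes at 0.81 (arrays 1 and 2) and 0.94 (arrays 3 and 4) within an orientation, and from -0.29 to -0.12 between orientations. Probes well above background in the treated channel numbered 6737 to 7403 on arrays 1 and 2 and 8982 to 9416 on arrays 3 and 4, so the orientation of the dyes cannot be told apart from the quality of the arrays. Standard errors rest on differences between arrays that share an orientation and leave out the difference between orientations. As to the cell type, 10 of the 12 erythroid markers on the array were well above background in all 8 channels, and the mean log2 intensity of the 12 was 13.62 to 14.05 in treated and 14.06 to 14.60 in control channels, with 7 called lower and 1 higher. Among 13 markers of other cell types, CD79A, ITGAM and EPCAM were well above background in all channels and 5 (MS4A1, ELANE, MPO, NCAM1 and COL1A1) in none. ITGAM was not tested, since its spots on all 4 arrays were marked as outliers. The mean log2 intensity of the 13 was 9.51 to 9.93 in treated and 9.70 to 9.91 in control channels. The part of the lower erythroid genes in the values of the network was not tested.

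Around the network, lists of genes that work with its proteins or respond to them were counted in the same fit. These counts describe the lists and are read against the shares of all probes given above.

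Closest to the network is MYCL, the third MYC gene, which is known from lung cancer. Its log2 ratios were 0.38, 0.42, 1.01 and 0.95 on arrays 1 to 4. All 4 lay above 0 and the pair with the treated RNA in Cy3 was the higher, with a limma value of 0.69 (standard error 0.064, adjusted p = 0.00013), a 1.61-fold rise. In the control channel it was well above background on 3 arrays. MLXIP and MLXIPL, the Mondo proteins that pair with MLX, had values of -0.06 and -0.17, and their target TXNIP, an inhibitor of glucose uptake, had 0.06. None of these 3 was called, so 1 of the 4 tested genes was.

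Of 10 tested coactivators and partners of MYC, 2 were higher and 1 lower, with a median of 0.02. EP300, a histone acetyltransferase, rose by 0.50 (adjusted p = 0.0015 in limma) and TRRAP, the scaffold through which MYC binds acetyltransferase complexes, by 0.31 (adjusted p = 0.0070). Both were above 0 on all 4 arrays, but EP300 had 0.02 and 0.22 on arrays 1 and 2 and 0.73 and 1.03 on arrays 3 and 4. RUVBL1, an ATPase of the TIP60 complex, was lower on all 4, at -0.33 (adjusted p = 0.0055).

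The corepressors that the MXD proteins, MXI1 and MNT recruit went both ways, with 3 of 13 tested genes higher and 2 lower and a median of 0.06 (-0.06 with median centring). SAP30, a SIN3 subunit, had 0.35 and SIN3A 0.26, while SIN3B had -0.29 and the deacetylase HDAC2 -0.42. Of these, HDAC2 kept its sign on all 4 arrays, and the other 3 changed sign with the dye. In the MGA complex 2 of 10 tested genes were higher and 1 lower (median 0.05). RYBP and YAF2, which are alternative subunits of the same place in Polycomb complexes, had 0.43 and 0.42. RYBP was above 0 on all arrays, whereas YAF2 ran from -0.31 on array 1 to 1.11 on array 4. TFDP1, the dimer partner of E2F6, fell, to -0.28, and was below 0 on all arrays.

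The genes that set how long MYC protein lasts showed 1 of 13 higher and 2 lower. BTRC, the ubiquitin ligase subunit βTrCP, had 0.33, 0.26, 0.31 and 0.40 on arrays 1 to 4, with limma at 0.33 (adjusted p = 0.0051). The SD over the arrays was 0.057, although the control channel was well above background on 2 arrays only. The size of the BTRC value depended on the processing, and was 0.80 both with processed signals and with the series table. GSK3B, the kinase whose mark on MYC leads to its degradation, was -0.43 (adjusted p = 0.0034 in limma), lower on 3 of 4 arrays. SKP2, another ligase subunit for MYC, was -0.21 (adjusted p = 0.037 in limma) and was below 0 only with the treated RNA in Cy3. FBXW7, the ligase subunit that reads the GSK3B mark, had 0.12 and was not called. Among 10 regulators of MYC transcription and mRNA, CTCF, an insulator protein, was at 0.25 (adjusted p = 0.046 in limma), a call lost in most settings tried, with adjusted p-values from 0.0031 to 0.478. ELAVL1, an RNA-binding protein, was at -0.25 (adjusted p = 0.023 in limma), with opposite signs in the dye orientations.

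Genes that MYC is known to raise were also counted. Of 21 ribosome biogenesis genes, all of which could be tested of those on the array, 6 were lower and 0 higher by limma (0 higher also at an unadjusted p under 0.05, and 8 lower). Their median log2 ratio was -0.18, and 18 of 21 lay below 0 against 47.0% of all probes. Of the genes called lower, RRS1, NIP7 and PPAN were below 0 on all arrays. The others changed sign with the dye. NOP2 had a mean of 0.17 over arrays 1 and 2 and -0.67 over arrays 3 and 4, and PES1 had 0.35 and -0.77. GNL3 had -0.87 on array 2 and a mean of 0.34 over arrays 3 and 4. RRS1, needed for the assembly of the large ribosomal subunit, had -0.81, -1.05, -0.46 and -0.27 on arrays 1 to 4. It was lower on every array, with a limma value of -0.65 (standard error 0.073, adjusted p = 0.00031). PPAN, a factor of the same subunit, had -0.44 (adjusted p = 0.0034 in limma), from -0.00 on array 2 to -0.87 on array 4. The median of the list was below 0 in both orientations, at -0.07 on arrays 1 and 2 and -0.28 on arrays 3 and 4. The first of these rests on array 2 alone for NCL, NPM1, FBL, DKC1, RRP9, GNL3, MRTO4 and GAR1. Their spots on array 1 were marked as outliers, and the median itself is the array 2 value of DKC1. The abundant nucleolar proteins NCL, NPM1 and FBL were at -0.07, -0.11 and -0.16 over 3 arrays each, and none was called. The number called lower was 0 without the dye term and 2 without array 3 or without array 4, while the median stayed between -0.22 and -0.15 in all settings tried.

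Of 19 metabolic genes 1 was higher and 4 were lower (median -0.05, but -0.14 with median centring and -0.17 with processed signals or the series table, where 0 were called higher). SHMT2, a mitochondrial enzyme of serine and folate metabolism, was that gene, at 0.31 and above 0 on all arrays. Its call was lost with median centring, processed signals, the series table or marked spots kept and without array 2, 3 or 4 (limma adjusted p from 0.057 to 0.198). The glucose transporter gene SLC2A1 was -1.34, -1.67, 0.26 and -0.10 on arrays 1 to 4 and the nucleotide synthesis gene PRPS2 -1.36, -1.10, -0.01 and -0.06. Their limma values of -0.71 and -0.63 were called, but both rested mostly on the arrays with the treated RNA in Cy5. ODC1, the first enzyme of polyamine synthesis and a textbook MYC target, had 0.06, -0.74 and -0.66 on arrays 2 to 4. Limma gave -0.32 over these 3 arrays (adjusted p = 0.021), with the sign again turning with the dye. Of 16 cell cycle genes 2 were higher and 2 lower (median 0.02). MCM5, of the replicative helicase, had 0.32, with -0.03 on array 1 and values above 0 on the others. It was 0.49 without array 1 and 0.15 without array 2, and its call was lost without array 2, 3 or 4 and with marked spots kept. E2F3, a transcription factor for entry into S phase, had 0.31, with opposite signs in the dye orientations. ID2, an inhibitor of differentiation, fell on all 4 arrays, with a limma value of -0.65 (adjusted p = 0.00019), and CUL1, the scaffold of the SCF ligases, was at -0.27 and lower on all 4. CDK4, a direct MYC target, was at 0.02 and was not called.

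Genes that MYC is known to hold down were called in both directions. Of 14 listed, 8 were tested, with 3 higher and 4 lower and a median of -0.01. This median changed sign with the processing, from -0.15 with processed signals to 0.40 with both channels required above background. Over the settings tried, from 1 to 5 genes were called higher and from 0 to 4 lower. CDKN1A, CDKN2C and CEBPA were bright but not tested, since spots marked as outliers left too few. On arrays 2 and 4, CDKN1A had 1.18 and 0.07 and CDKN2C 0.61 and 0.34, and CEBPA had -0.09 on array 3. CDKN2B, NDRG1 and GAS1 were too dim to be tested. DDIT3, a stress transcription factor, had the largest rise, 1.64, followed by GADD45A, a growth arrest gene, at 0.68, with 0.64, 0.71, 0.54 and 0.83 on arrays 1 to 4. CCND1, the gene for cyclin D1, was -0.75 and CDKN1C, a cyclin-dependent kinase inhibitor, -0.71. All 4 kept their sign on every array, but CDKN1C had -1.37 and -1.08 on arrays 1 and 2 and -0.07 and -0.32 on arrays 3 and 4. CCND1 was dim, well above background in the treated channel of 1 array and the control channel of 2. It passed the filter only through the control channel, the higher one, so its size is uncertain and its place among the 4 lower genes was favoured by the filter. DDIT3 and CCND1 are named by the study for these arrays and are not independent evidence of the direction of the list. The cell cycle inhibitor CDKN1B, at 0.57, was called too, but its mean was -0.55 over arrays 1 and 2 and 1.68 over arrays 3 and 4.

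Without the dye term DDIT3 (adjusted p = 0.027 in limma) was the only one of the genes named by rule to keep its call. Without array 4, 18 of them lost it, and MYCL, EP300, YAF2, RRS1, SLC2A1, PRPS2, ID2, DDIT3, GADD45A, CCND1 and CDKN1C kept it. With median centring RUVBL1, SIN3B, TFDP1, SKP2, ELAVL1 and SHMT2 lost it, and with processed signals CUL1, CTCF and SHMT2 did.

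The pattern of MYC was set against the 7991 tested probes with a value on all 4 arrays by Euclidean distance over their log2 ratios, leaving out genes of the network and the lists. H2AZ1 and C1QBP were among the 3 nearest. H2AZ1, a histone variant gene, had log2 ratios of 1.17, 0.66, -0.91 and -0.86 on arrays 1 to 4, at a distance of 0.20. C1QBP, a mitochondrial protein gene, lay at a distance of 0.22. Both changed sign with the dye as MYC did, and neither was called.

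The plot of the tested genes under each way of processing shows what held.

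**Figure D3:**
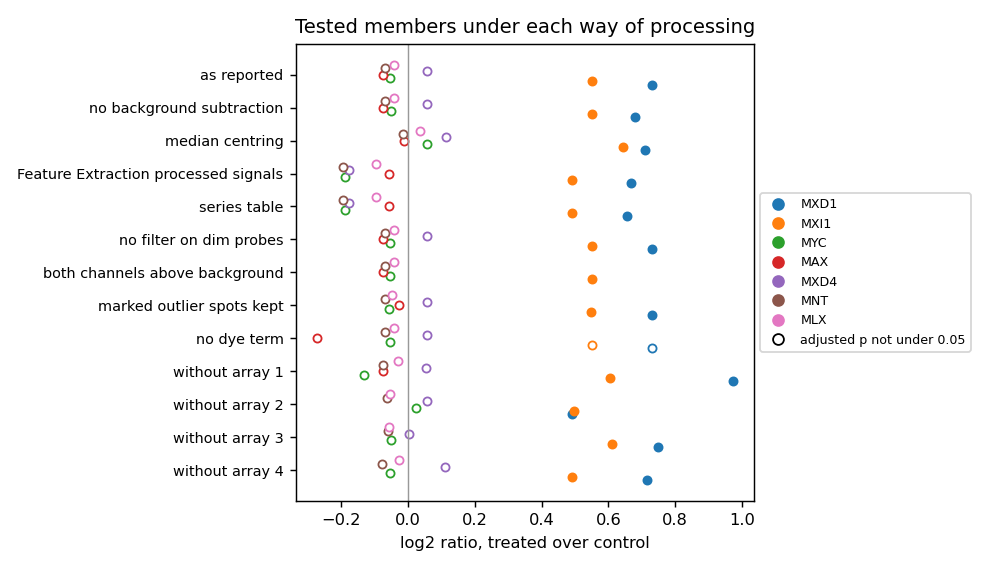
Limma log2 ratio of treated over control (x axis) of the 7 tested genes under the reported and 12 other ways of processing (y axis); filled symbols had an adjusted p under 0.05. MXD1 and MXI1 stay at 0.49 or above where tested (MXD1 has no value with both channels above background) and are open only with no dye term, while the other 5 genes are open throughout, from -0.27 to 0.12.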

How the data were processed

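RNA of treated and control K562 cells was hybridised to 4 two-colour arrays, which the authors quantified with Feature Extraction (9.5.1.1 per the file headers). The deposited spot and local background intensity values are not normalized. The deposited files also hold processed intensity values and their log10 ratio, and the authors' series table holds log10 ratios of treated over control.

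Here, normexp with an offset of 50 corrected the background of all spots together, 536 control spots were dropped and each array was normalized by loess (span 0.3). Spots marked as outliers were left out, 1.57% to 8.08% of probes per array. A probe entered the fit if either channel was well above background on 2 or more arrays and 3 or more spots were usable. The model in limma 3.58.1 (R 4.3.3) held treatment and dye as terms. Log2 ratios were computed from the deposited intensities. No spot was saturated, and the number of arrays limits precision. The limma step was tested on simulated data. Probes were named through their accession and a RefSeq table for 12002 of 14297 probes, the others by the name they carried. Positions of probes are as deposited, in hg18, and no annotation of that build was used, so exons and UTRs are not given. Promoter sequences are from RefSeq (GRCh38.p14).

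Members and gene lists were chosen with earlier results of these data known. Named are all network genes, up to 2 called genes with the largest ratio in each direction per list, and genes among the 3 nearest to MYC (one of them, and one marker gene, are not reported here); MLXIP, MLXIPL, TXNIP, FBXW7, NCL, NPM1, FBL, ODC1, CDK4 and CDKN1B were added after their values were seen. Alternatives were no background subtraction, median centring, the processed signals of Feature Extraction, the authors' series table, a stricter and no filter for dim probes, marked spots kept, no dye term and each array left out.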

Additional observations from a re-analysis of the deposited data

How the results depend on the processing

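Of the alternatives tried, leaving out the dye term changed most: 0 network genes were called higher, and 52 probes were higher and 4 lower in all. With both channels required above background on all arrays, 1 network gene was called higher (MXI1, as MXD1 was not tested there) of 1342 probes. The number of network genes called higher was 2 in all other settings and the number called lower 0 in all settings. Median centring called 589 probes lower. Without each array in turn, from 1010 to 2590 probes were higher and from 283 to 1469 lower, the lowest without array 4. Signs turned for values near 0: with median centring MLX was 0.037, MYC 0.058, C1QBP -0.079 and H2AZ1 -0.13. With processed signals MXD4 was -0.18, C1QBP -0.088 and H2AZ1 -0.13, and with the series table the values were -0.18, -0.088 and -0.13. With marked spots kept C1QBP was -0.035 and H2AZ1 -0.072. Without each array in turn C1QBP ran from -0.062 to 0.15, H2AZ1 from -0.11 to 0.14 and MYC from -0.13 to 0.026. The cause was not tested. MXD1 ranged from 0.49 (without array 2) to 0.97 (without array 1). MAX could be fitted without array 1 only, since the other choices leave fewer than 3 usable arrays. Each ratio sets treated against control within an array, so the fit is paired by array throughout. List counts under these settings were added after seeing the data.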
